A study of Rattus norvegicus with 9 samples.

Results

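The insulin-like growth factor (IGF) axis was followed through 10 genes in cultured rat cells: the ligands Igf1 and Igf2, the receptors Igf1r and Igf2r, and the binding proteins Igfbp2, Igfbp3, Igfbp4, Igfbp5, Igfbp6 and Igfbp7. They were chosen by name, as the array features that the platform annotation ties to 1 of these symbols, and each is read by 1 feature. They are 10 of the 14506 genes tested. RNA was measured on Affymetrix Rat Gene ST 1.0 arrays in 3 groups of 3 independent cultures, all from adult Sprague Dawley rats. Nerve Schwann cells were grown from dissociated sciatic nerve. Skin-derived precursors (SKPs) were spheres grown from dissociated dorsal trunk skin, collected as spheres. SKP-derived Schwann cells came from such spheres plated in Schwann cell growth medium, and both kinds of Schwann cell were passaged and grown to confluence. Every group is a primary culture with no stated purification, so a group can hold other cells of nerve or skin.

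IGF1 and IGF2 are secreted growth factors that bind the type 1 receptor, a tyrosine kinase encoded by Igf1r, which signals through insulin receptor substrates to PI3 kinase and AKT. In Schwann cells this pathway is known for survival and growth during nerve development and repair. Igf2r encodes the cation-independent mannose 6-phosphate receptor, which carries lysosomal enzymes to the lysosome and takes up IGF2 for degradation. The IGF binding proteins hold the ligands outside the cell and are opened by proteases such as PAPP-A. IGFBP7 binds IGFs only weakly and is counted as a related protein.

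The deposited values are log2 levels, so a difference of 1 is 2-fold, and levels of different genes are not set against each other because probes differ in brightness. Per the labels, data of the 3 SKP cultures had been deposited before and were analysed again here. A batch of those arrays, and sphere culture against confluent culture, cannot be told apart from the cell type. Median values of the arrays lay between 6.20 and 6.27 in SKPs, between 6.33 and 6.44 in SKP-derived Schwann cells and between 6.82 and 6.87 in nerve Schwann cells. The median difference over all genes was 0.46 for nerve Schwann cells minus SKPs and -0.45 for SKP-derived minus nerve Schwann cells as deposited. After cyclic loess, which fits the arrays to each other over their range of levels, those medians were -0.03 and -0.02. Of the calls between nerve Schwann cells and SKPs 77.0% were higher in nerve cells as deposited, 46.6% after cyclic loess and 35.0% after median centring. Between SKP-derived cells and SKPs the share of higher calls was 46.5% as deposited and 34.7% after median centring. For SKP-derived against nerve cells it was 3.05%, 54.9% and 67.3% on the same scales in that order. Values after cyclic loess are therefore given wherever they change a call of the 10 genes. Tissue is labelled dermis for every array, sciatic nerve included. All 6 measured Schwann cell markers were higher in both Schwann cell groups than in SKPs, with mean levels of 10.35 to 11.27 against 5.51 to 6.28.

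Relative to SKPs, 3 of the 10 genes were lower in both kinds of Schwann cell: Igf2r, Igfbp3 and Igfbp4. The share of all genes lower in both was not counted, so this count is not read as particular to the IGF axis. Igf1r was lower in the SKP-derived Schwann cells, while Igf2 and Igfbp2 were higher in the nerve Schwann cells by less than 2-fold. In nerve Schwann cells minus SKPs, 2 genes were called higher and 3 lower at an adjusted p under 0.05 in limma, where 49.7% of all genes were called higher and 14.9% lower. In SKP-derived Schwann cells minus SKPs, 0 were called higher and 4 lower, against 19.3% and 22.3% of all genes. In SKP-derived minus nerve Schwann cells, limma called 0 higher and 2 lower, against 1.33% and 42.3% of all genes. At an unadjusted p under 0.05 both counts of 0 higher genes were again 0. The median difference of the 10 genes was -0.25, -0.72 and -0.46 in these comparisons in turn, beside 0.46, -0.01 and -0.45 over all genes. Both comparisons with SKPs use the same 3 SKP arrays.

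**Figure D1:**
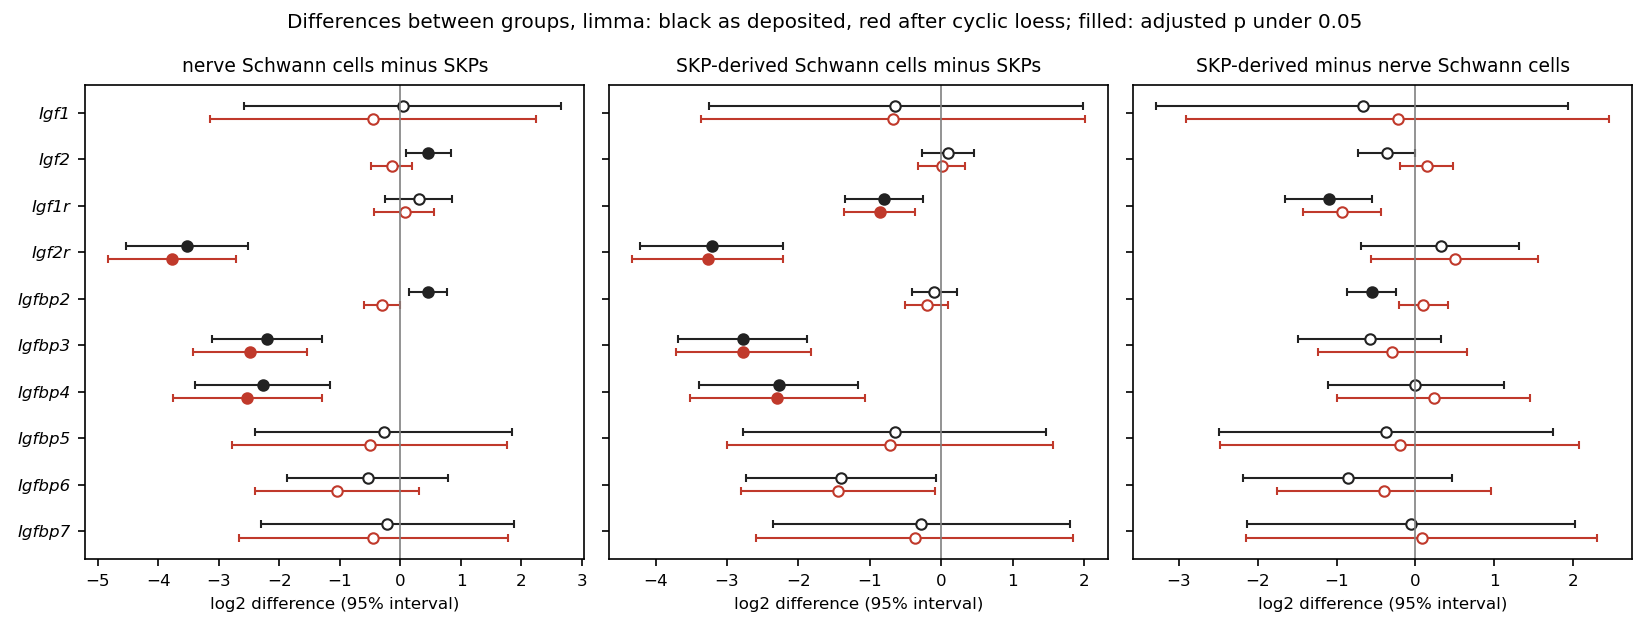
Fitted log2 differences of the 10 IGF axis genes in the 3 comparisons, with 95% confidence intervals from limma, as deposited and after cyclic loess. Igf2r, Igfbp3 and Igfbp4 lie well below 0 in both comparisons with SKPs on both scales, while the intervals of Igf1, Igfbp5 and Igfbp7 span 0 in every comparison.

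After cyclic loess the lower calls in nerve Schwann cells were again 3, with 0 genes called higher (22.4% of all genes higher, 25.6% lower). In SKP-derived Schwann cells against SKPs the counts were 0 higher and 4 lower (18.6% and 23.9% of all genes). For SKP-derived against nerve cells limma called 0 genes in either direction on that scale (0.731% of all genes higher, 0.6% lower), and 1 gene, Igf1r, was lower at an unadjusted p under 0.05. For the nerve cells, and for SKP-derived cells against SKPs, the unadjusted counts of higher genes were also 0. 

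Igf2r had the largest difference of the 10 genes in both comparisons with SKPs. Its log2 levels were 11.59, 12.13 and 12.12 in the 3 SKP arrays, against 8.27, 9.24 and 7.74 in nerve Schwann cells and 7.86, 9.47 and 8.87 in SKP-derived Schwann cells. All SKP arrays lay above all Schwann cell arrays, and the Schwann cell groups overlapped. The difference was -3.53 (SE 0.45, n = 3 per group, limma adjusted p = 0.000177) in nerve Schwann cells, an 11.5-fold lower level, and -3.21 (SE 0.45, adjusted p = 0.000444) in SKP-derived Schwann cells, a 9.28-fold lower level. Between the Schwann cell groups it was 0.32, with a 95% confidence interval of -0.69 to 1.32 (limma adjusted p = 0.58).

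Igfbp3, the main carrier of IGFs in blood, was also highest in SKPs. Its levels were 10.24, 10.70 and 10.03 in SKPs, 7.66, 8.44 and 8.26 in nerve Schwann cells and 6.53, 8.18 and 7.92 in SKP-derived Schwann cells. The lowest SKP array lay above the highest Schwann cell array. Igfbp3 fell by 2.20 (SE 0.40, limma adjusted p = 0.00121, 4.61-fold) in nerve and by 2.78 (SE 0.40, adjusted p = 0.000562, 6.89-fold) in SKP-derived Schwann cells. SKP-derived and nerve cells differed by -0.58 (95% confidence interval -1.49 to 0.33, limma adjusted p = 0.261), with overlapping arrays. It was -1.32 with array weights (adjusted p = 0.00681), a setting that gives arrays far from their group less weight.

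Igfbp4, a binding protein cleaved by PAPP-A, was the third of these genes. It read 10.76, 10.97 and 10.57 in SKPs, 8.21, 9.48 and 7.79 in nerve Schwann cells and 8.15, 9.54 and 7.80 in SKP-derived Schwann cells. The SKP arrays again lay above all others, and array 2 was the highest within each Schwann cell group. It fell by 2.27 in both comparisons (SE 0.50, 4.83-fold), with limma adjusted p = 0.00306 in nerve and 0.00539 in SKP-derived Schwann cells. SKP-derived and nerve Schwann cells differed by 0.00 (95% confidence interval -1.11 to 1.12). For Igf2r, Igfbp3 and Igfbp4 both calls against SKPs held under all 21 alternative settings, with differences between -4.13 and -1.92. Not every setting could change a difference. Each gene has 1 feature, so other rules for features leave it as it was, as does leaving out an array of the group not compared.

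Because these 3 genes were lower in both Schwann cell groups, the 250 bases before the annotated start of each are shown 5′ to 3′ on the gene's own strand, from RefSeq on build GRCr8. The table holds a promoter for all 10 genes. Capitals mark letters that a script found on either strand, namely the TATA box letters TATAAA, the GC box letters GGGCGG and the E-box letters CACGTG, shown with 2 further bases on each side.
Igf2r, chr1:50526628-50526877, plus strand: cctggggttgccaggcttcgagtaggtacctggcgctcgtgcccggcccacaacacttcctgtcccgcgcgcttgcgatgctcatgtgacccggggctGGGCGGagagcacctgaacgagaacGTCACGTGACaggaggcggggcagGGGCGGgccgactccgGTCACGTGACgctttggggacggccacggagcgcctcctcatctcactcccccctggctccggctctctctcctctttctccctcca
Igfbp3, chr14:86277945-86278194, minus strand: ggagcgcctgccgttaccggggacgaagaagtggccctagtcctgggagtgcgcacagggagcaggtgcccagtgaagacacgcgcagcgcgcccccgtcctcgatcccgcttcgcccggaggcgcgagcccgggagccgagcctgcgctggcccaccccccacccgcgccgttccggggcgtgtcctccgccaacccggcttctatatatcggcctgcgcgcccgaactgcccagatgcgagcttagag
Igfbp4, chr10:84491221-84491470, plus strand: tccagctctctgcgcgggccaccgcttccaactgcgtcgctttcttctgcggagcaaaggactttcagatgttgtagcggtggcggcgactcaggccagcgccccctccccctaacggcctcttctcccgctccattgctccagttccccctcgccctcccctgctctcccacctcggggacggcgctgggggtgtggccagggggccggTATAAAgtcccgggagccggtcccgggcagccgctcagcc

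The 3 windows differ in the letters searched. Igf2r holds 2 GC boxes and 2 E-boxes, and each E-box sits inside the palindrome GTCACGTGAC, beginning 125 and 85 bases before the start. Igfbp4 holds 1 TATAAA, 40 bases before the start, and Igfbp3 holds none of the exact letters searched. Other forms of these motifs were not counted, so absence of a TATA box is not claimed for Igfbp3. Over 33469 rat promoters of the same length, 12.9% hold the TATA box letters, 30.5% the GC box, 5.59% the E-box and 0.203% the palindrome, and 3 promoters hold it at least 2 times. The palindrome's letters were read from the Igf2r window itself, so its share elsewhere is a description and no test. The E-box lies within the palindrome, so matches to both are at the same places. The longer palindrome is a form of the CLEAR element, known from promoters of lysosomal genes. The matches describe sequence only, and binding was not measured here. The GC content of the windows was 68.0%, 71.6% and 68.8% for Igf2r, Igfbp3 and Igfbp4, against a median of 51.2% over all promoters. Among the other members it ran from 46.8% for Igf1 to 79.6% for Igf1r. Igfbp7, at 74.4%, holds 4 GC boxes, and Igf1r and Igfbp2 each hold 1 GC box and 1 E-box. High GC content, GC boxes and E-boxes are therefore not particular to the 3 genes.

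Between SKPs and Schwann cells, most markers of dermal mesenchyme differed in the same direction as these 3 genes. Of 10 markers, 7 were lower in each Schwann cell group than in SKPs, as deposited and after cyclic loess. Their mean log2 level was 12.23, 12.22 and 10.73 in SKPs, 9.41, 10.26 and 8.91 in nerve Schwann cells, and 8.58, 10.35 and 9.44 in SKP-derived Schwann cells. Array 2 of each Schwann cell group had both the highest mesenchymal mean and the highest Igf2r, Igfbp3 and Igfbp4 of its group. The lowest arrays matched for Igf2r and Igfbp4 in nerve, Igf2r and Igfbp3 in SKP-derived cells, and Igfbp3 and Igfbp4 in SKPs. They did not match for Igfbp3 in nerve or Igfbp4 in SKP-derived cells. Nor did they for Igf2r in SKPs, at 12.12 on array 3 and 11.59 on array 1. Single markers did not all follow the mesenchymal mean (markers named after their values were seen). Col1a1, Col1a2 and Pdgfrb were lowest on array 2 of SKP-derived cells, and Col1a1 and Col1a2 were highest on array 3 of nerve cells. The part of these markers in the IGF axis differences was not tested. In bulk cultures fewer cells of a type and less RNA per cell cannot be told apart.

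**Figure D2:**
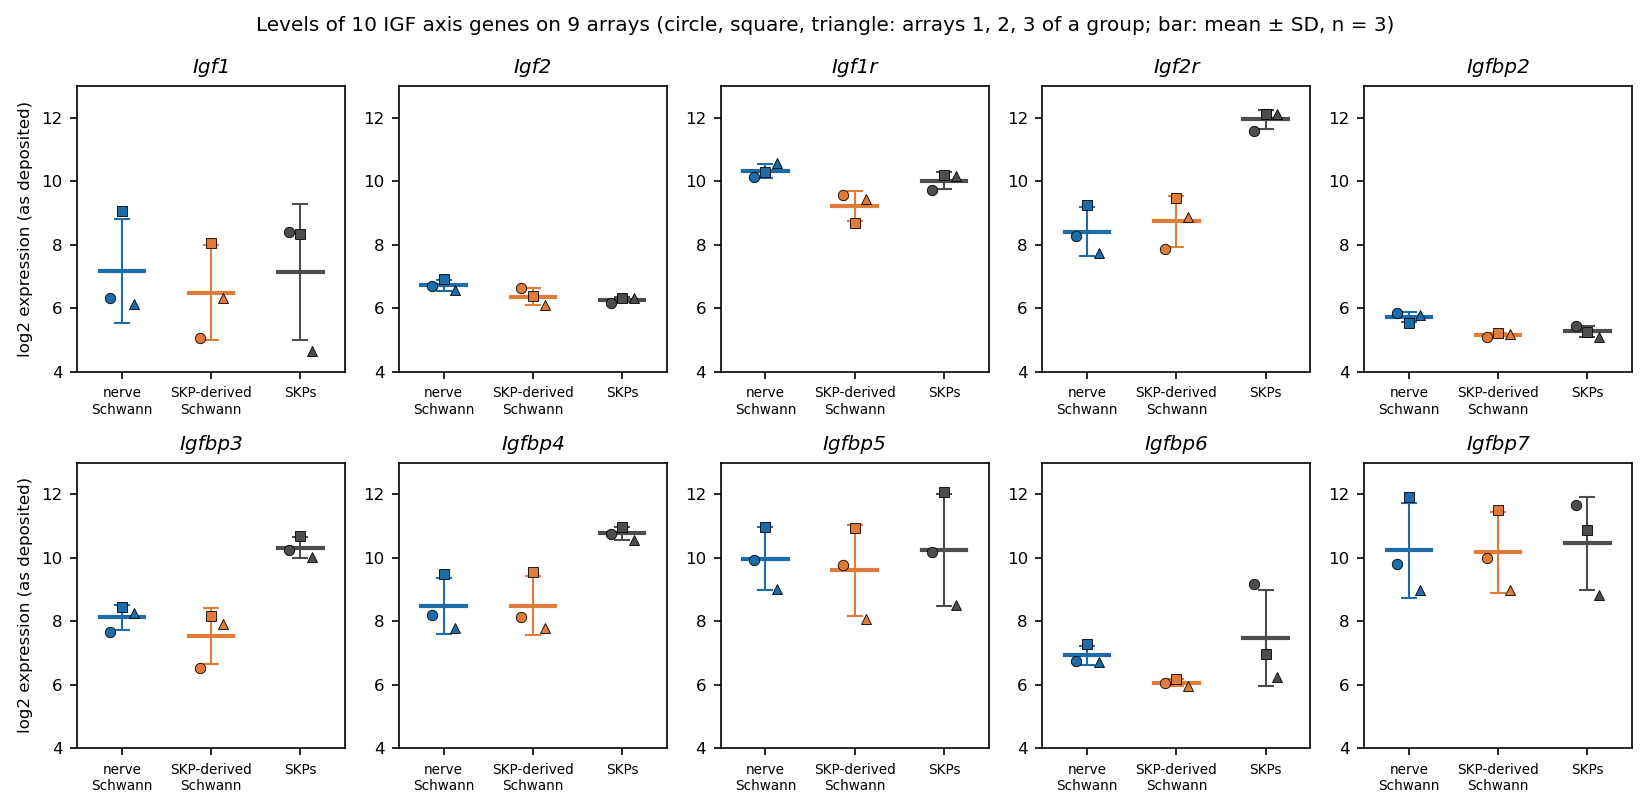
Deposited log2 levels of the 10 genes in each of the 9 arrays, by group, with the group mean and its SD (n = 3). SKP arrays stand above all Schwann cell arrays for Igf2r, Igfbp3 and Igfbp4, and the 3 arrays of a group spread widely for Igf1, Igfbp5 and Igfbp7.

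Igf1r, the signalling receptor, ordered the groups in another way. Its levels were 10.14, 10.28 and 10.57 in nerve Schwann cells, 9.71, 10.20 and 10.16 in SKPs and 9.56, 8.69 and 9.44 in SKP-derived Schwann cells. The SKP-derived arrays lay below all others, and the nerve and SKP arrays overlapped. Against SKPs the SKP-derived cells were lower by 0.80 on the log2 scale, a difference of -0.80 (SE 0.24, limma adjusted p = 0.0265, 1.74-fold), and -0.86 after cyclic loess (adjusted p = 0.0117). That call rested on single arrays: the adjusted p was 0.0618 without SKP-derived array 2, which was the lowest, 0.0815 without SKP array 2 and 0.0633 without SKP array 3. It was also lost in the fit of only these groups (adjusted p = 0.0572) and with array weights (0.0646). SKP-derived array 2 also had the lowest mean of the 6 measured Schwann cell markers in its group, at 10.35 against 11.27 and 11.05. Single markers did not all do so: Egr2 was lowest on array 1 and Cdh19 on array 3. Whether the marker mean of that array goes with its low Igf1r was not tested.

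Against nerve Schwann cells, Igf1r in SKP-derived Schwann cells differed by -1.10 (SE 0.24, limma adjusted p = 0.00803, 2.15-fold). The call was lost after cyclic loess (-0.93, adjusted p = 0.0729), quantile normalisation (-0.92, 0.0661) and median centring (-0.63, 0.18), while the difference stayed negative in each. Nerve Schwann cells and SKPs differed by 0.30 (95% confidence interval -0.25 to 0.85, limma adjusted p = 0.297).

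Igf2, the fetal growth factor of the pair, showed only small differences. It read 6.70, 6.92 and 6.57 in nerve Schwann cells, 6.63, 6.38 and 6.10 in SKP-derived Schwann cells and 6.18, 6.31 and 6.33 in SKPs. The nerve arrays lay above the SKP arrays, while the SKP-derived arrays overlapped with both. As deposited, nerve cells were higher than SKPs by 0.46 (SE 0.16, limma adjusted p = 0.0325), which equals the median shift of all genes. After cyclic loess the difference was -0.14 (adjusted p = 0.456), so its direction depends on the scale. The call was also lost without nerve array 1 (adjusted p = 0.0721) or 2 (0.127), or without SKP array 1 (0.0847) or 2 (0.0591). SKP-derived cells differed from SKPs by 0.10 (95% confidence interval -0.27 to 0.46) and from nerve cells by -0.36 (-0.73 to 0.00, limma adjusted p = 0.0964). The latter was called without SKP-derived array 1 (-0.50, adjusted p = 0.0474).

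Igfbp2, a binding protein with a preference for IGF2, also had calls that depended on the scale. Its levels were 5.84, 5.54 and 5.80 in nerve Schwann cells, 5.11, 5.23 and 5.18 in SKP-derived Schwann cells and 5.44, 5.26 and 5.11 in SKPs. Nerve arrays lay above all others, and the other groups overlapped. Nerve cells were higher than SKPs by 0.45 (SE 0.14, limma adjusted p = 0.0178) as deposited, but the difference was -0.31 after cyclic loess (adjusted p = 0.0929). The call was lost without nerve array 1 (adjusted p = 0.0725) or 3 (0.0652) or SKP array 3 (0.0513). SKP-derived cells differed from nerve cells by -0.55 (SE 0.14, adjusted p = 0.0134) as deposited and by 0.10 after cyclic loess (adjusted p = 0.715). This call was lost without nerve array 1 (0.0566) or 3 (0.054). Against SKPs the SKP-derived cells differed by -0.10 (95% confidence interval -0.41 to 0.22).

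The ligand Igf1 varied more within groups than between them. It read 6.33, 9.05 and 6.13 in nerve Schwann cells, 5.08, 8.07 and 6.32 in SKP-derived Schwann cells and 8.40, 8.33 and 4.66 in SKPs. Array 2 was the highest in both Schwann cell groups, array 3 was the lowest in SKPs, and all groups overlapped. Group means were 7.17 ± 1.63, 6.49 ± 1.51 and 7.13 ± 2.14 (SD, n = 3). Nerve cells differed from SKPs by 0.04 (95% confidence interval -2.58 to 2.66) and SKP-derived cells by -0.64 (-3.25 to 1.98). Single arrays set the size: nerve cells minus SKPs was -0.90 without nerve array 2 and -1.19 without SKP array 3, neither called.

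Igfbp5, which binds to extracellular matrix, and Igfbp7 had a similar spread. Igfbp5 read 9.92, 10.98 and 9.02 in nerve Schwann cells, 9.78, 10.95 and 8.08 in SKP-derived Schwann cells and 10.17, 12.06 and 8.52 in SKPs. In every group array 2 was the highest and array 3 the lowest. The difference from SKPs was -0.28 (95% confidence interval -2.40 to 1.84) in nerve and -0.65 (-2.77 to 1.47) in SKP-derived cells. Igfbp7 read 9.80, 11.90 and 8.99 in nerve Schwann cells, 10.18 ± 1.27 (mean and SD, n = 3) in SKP-derived Schwann cells, where array 2 was at 11.52, and 11.66, 10.87 and 8.83 in SKPs. Its Schwann cell groups had array 2 at the top, its SKP group array 1. Its difference from SKPs was -0.22 (-2.31 to 1.87) in nerve and -0.28 (-2.36 to 1.81) in SKP-derived cells. The intervals for SKP-derived minus nerve cells were -2.49 to 1.75 for Igfbp5, -2.14 to 2.03 for Igfbp7 and -3.29 to 1.94 for Igf1.

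Array 2 held the highest level of its group for 8 of the 10 genes in nerve Schwann cells and for 8 of 10 in SKP-derived Schwann cells. The share of all genes highest on array 2 was not counted, so these counts are not read as particular to the IGF axis. Over all genes, deviations of array 2 from its group mean correlated at 0.289 between the Schwann cell groups. In SKPs array 1 was highest for 4 genes, array 2 for 5 and array 3 for 1. Within each Schwann cell group the mean of the mesenchymal markers was also highest on array 2, and within SKPs it was lowest on array 3. Single markers did not all do so: Col1a1, Col1a2 and Pdgfrb read 11.01, 10.82 and 9.72 on SKP-derived array 2, the lowest of that group for each (markers named after their values were seen). Whether these arrays hold more mesenchymal cells was not tested. The labels give only a sample number, so they do not say whether arrays of different groups belong together.

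**Figure D3:**
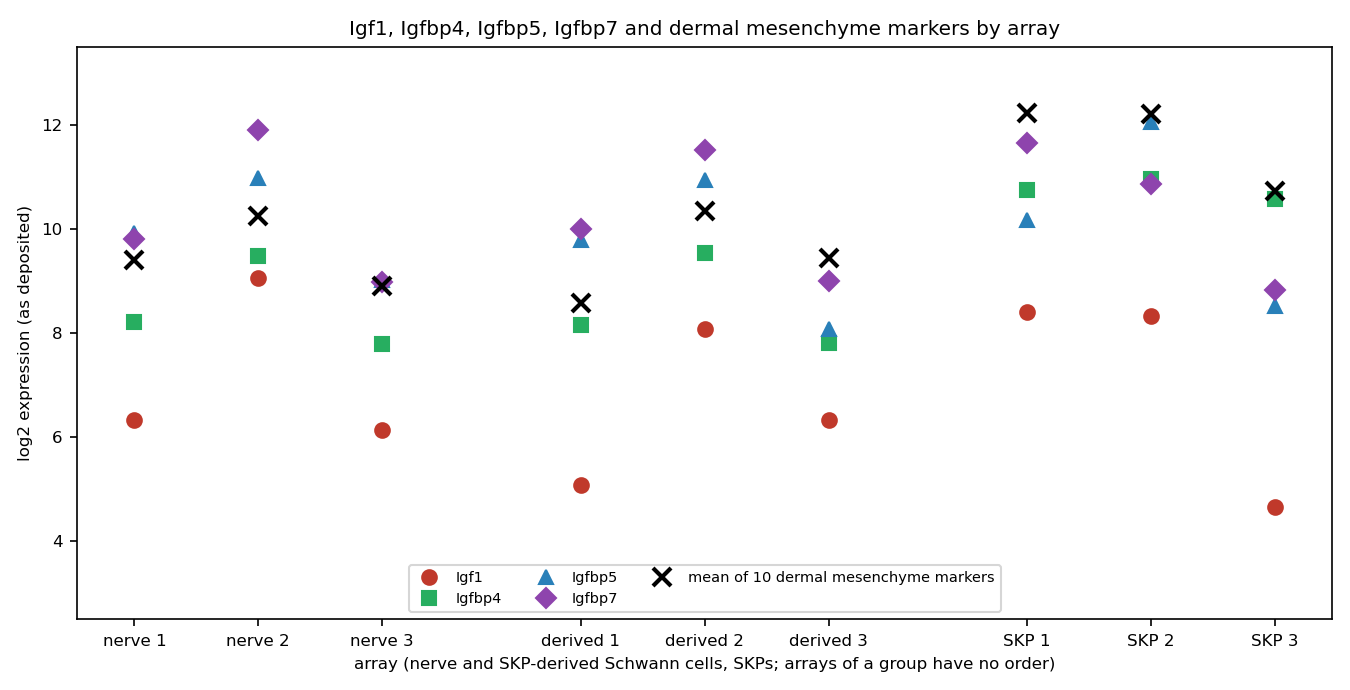
Deposited log2 levels of Igf1, Igfbp4, Igfbp5 and Igfbp7 beside the mean of 10 dermal mesenchyme markers, for each of the 9 arrays in 3 groups. Igf1, Igfbp5 and Igfbp7 are high on array 2 of both Schwann cell groups, where the marker mean is 10.26 and 10.35, and low on SKP array 3, where it is 10.73 against 12.23 and 12.22 on the other SKP arrays.

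Igfbp6, the binding protein with the strongest preference for IGF2, stood out on 1 array. It read 9.16, 6.98 and 6.26 in SKPs, 6.76, 7.28 and 6.73 in nerve Schwann cells and 6.07, 6.18 and 5.95 in SKP-derived Schwann cells. The SKP-derived arrays lay below all others, and SKP array 1 lay far above the rest. SKP-derived cells differed from SKPs by -1.40 (SE 0.59, 95% confidence interval -2.73 to -0.07, limma adjusted p = 0.0853), which was not called. It was called without SKP array 3 (-2.01, adjusted p = 0.0131) and with array weights (-1.48, 0.0424). Against nerve cells the difference was -0.86 (-2.19 to 0.47, limma adjusted p = 0.254), and it was called when SKP array 1 was left out of the shared fit (-0.86, 0.0167), in the fit of only these groups (0.00763) and with array weights (-0.98, 0.0403). Nerve cells differed from SKPs by -0.54 (-1.87 to 0.79). Macrophage markers were highest on the same SKP array, with means over 10 markers of 7.57, 6.29 and 5.63 in SKPs, 5.95 to 6.04 in nerve and 5.23 to 5.58 in SKP-derived Schwann cells. Of these 10 markers 1 was called lower in nerve and 2 were called lower in SKP-derived cells than in SKPs. Over all genes 14.9% and 22.3% were called lower as deposited, so these counts do not set the macrophage markers apart. Adipocyte markers were also highest on that array, with means over 5 markers of 6.87, 5.91 and 5.19 in SKPs, 5.56 to 5.88 in nerve and 5.18 to 5.46 in SKP-derived Schwann cells. The part of either list in the Igfbp6 level was not tested.

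Among the other genes of the pathway, 41 of 51 listed were measured. Against SKPs, 13 were higher and 11 lower in nerve cells (9 and 16 after cyclic loess), with a median difference of 0.05 beside 0.46 over all genes. In SKP-derived Schwann cells 9 were higher and 17 lower (9 and 18 after cyclic loess), with a median of -0.38 beside -0.01. In SKP-derived minus nerve cells limma called 0 higher and 14 lower, where 1 was higher at an unadjusted p under 0.05. After cyclic loess it called 0 in either direction, with 3 higher and 4 lower unadjusted, so each of the 14 calls was lost on that scale. Among them as deposited were Pik3cd at -0.96, Foxo4 at -0.89, Vtn at -0.83, Igf2bp1 at -0.81, Grb14 at -0.73, Furin at -0.71, Tsc1 at -0.68, Insrr and Rptor at -0.65, Rps6kb1 at -0.64 and Igfals at -0.53. The shares of all genes called in each comparison are those given above.

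Genes of ligand binding and cleavage split between the groups. Of 11 measured, nerve cells had 4 higher and 6 lower than SKPs (2 and 6 after cyclic loess), and 1 was higher and 6 lower in SKP-derived cells on both scales. Pappa encodes the PAPP-A protease that cleaves IGFBP4. It read 8.77, 8.31 and 10.21 in SKPs, 6.52, 6.59 and 6.29 in nerve Schwann cells and 5.77, 8.29 and 5.18 in SKP-derived Schwann cells, so that SKP-derived array 2 reached almost to the lowest SKP array. Pappa fell by 2.63 in nerve (SE 0.74, limma adjusted p = 0.011) and by 2.68 in SKP-derived cells (adjusted p = 0.0163). The second call was lost without SKP-derived array 1 (-2.36, 0.06) or 3 (-2.06, 0.058).

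Stc2, a stanniocalcin that inhibits PAPP-A, was lower in the same comparisons. It read 9.36, 9.55 and 11.91 in SKPs, 7.44, 6.96 and 7.10 in nerve Schwann cells and 6.42, 7.74 and 6.88 in SKP-derived Schwann cells. No arrays of SKPs and Schwann cells overlapped. The difference was -3.11 (limma adjusted p = 0.00168) in nerve and -3.26 (0.00226) in SKP-derived cells. The lysosomal protease Ctsd, a cargo of the mannose 6-phosphate pathway, fell by 1.12 and 1.21 in these groups in turn (limma adjusted p = 0.000164 and 0.000161). The protease Furin, which matures the IGF1 receptor precursor, fell by 0.81 and 1.52 (0.00738 and 0.000406).

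Igfbp1 lies next to Igfbp3 on chromosome 14 in the RefSeq table, on the opposite strand and with 0 genes between them, yet the sign of its difference was opposite. It read 6.32, 6.34 and 6.34 in nerve Schwann cells, 5.33, 5.73 and 5.24 in SKP-derived Schwann cells and 4.63, 5.08 and 5.26 in SKPs. Nerve arrays lay above all others, while the SKP-derived and SKP arrays overlapped as deposited and after cyclic loess. Every one of these levels was below the median of its array, so the contrast with Igfbp3 rests on a gene with a low signal. Nerve cells were higher than SKPs by 1.34 (SE 0.19, limma adjusted p = 0.000319) as deposited and by 0.59 after cyclic loess (0.02). SKP-derived cells differed from SKPs by 0.44 (adjusted p = 0.0928). Igfals, the acid-labile subunit of the circulating IGF complex, was higher by 1.30 in nerve and 0.77 in SKP-derived cells (limma adjusted p = 0.000197 and 0.00531). Igfbp2 and Igfbp5 are likewise neighbours, on chromosome 9 with 0 genes between, and are described above.

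**Figure D4:**
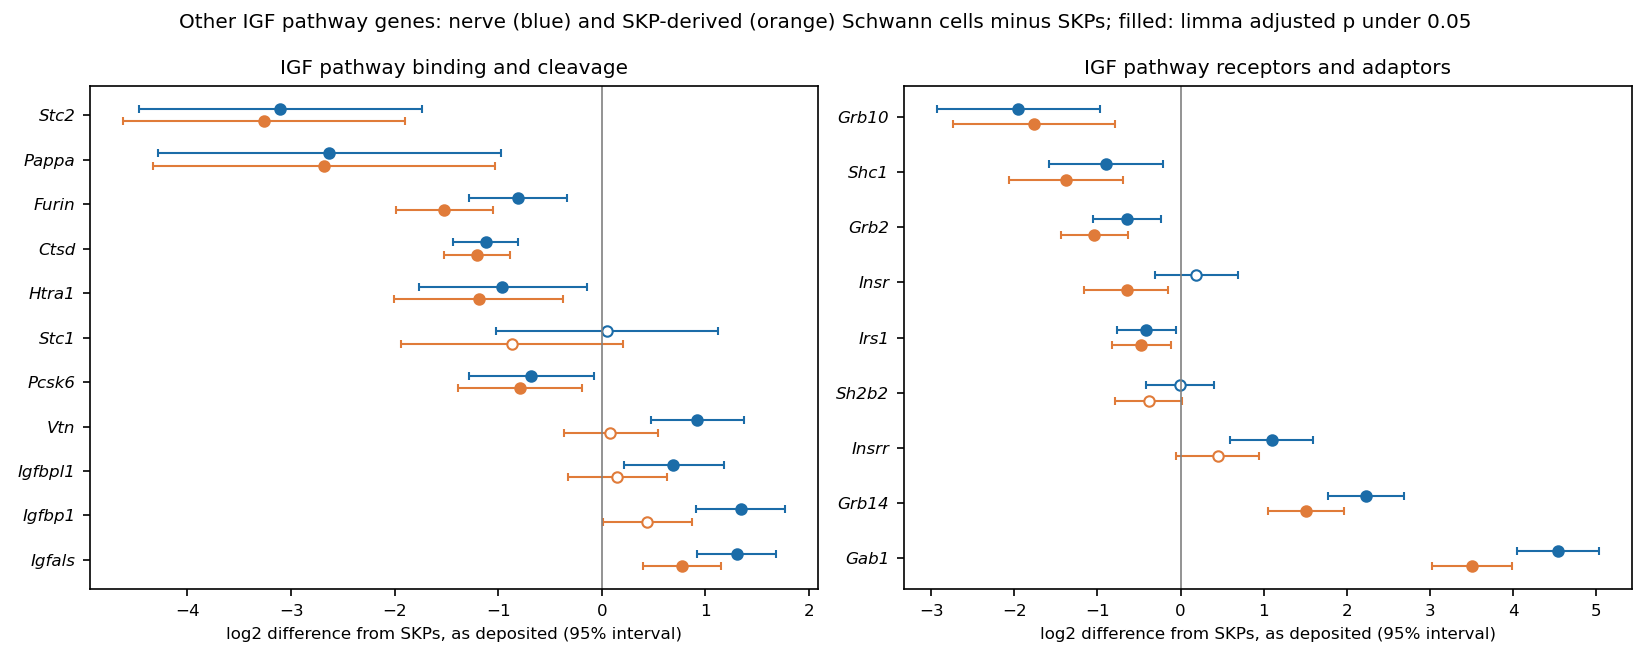
Fitted log2 differences from SKPs on the horizontal axis, with 95% confidence intervals from limma, for other IGF pathway genes in 2 panels (binding and cleavage, receptors and adaptors), nerve in blue and SKP-derived Schwann cells in orange, filled where called. Stc2 and Pappa lie farthest below 0 in the first panel, Gab1 farthest above 0 in the second with 4.54 and 3.51, and both colours share the 3 SKP arrays.

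Adaptors at the receptor included the largest differences of the pathway list. Of 9 measured receptor and adaptor genes, nerve cells had 3 higher and 4 lower (2 and 4 after cyclic loess), and 2 were higher and 5 lower in SKP-derived cells on both scales. Gab1, a docking protein for PI3 kinase and SHP2, read 11.85, 11.82 and 11.87 in nerve Schwann cells, 11.27, 10.28 and 10.89 in SKP-derived Schwann cells and 7.26, 7.36 and 7.29 in SKPs. The groups were fully apart. Its difference from SKPs was 4.54 (SE 0.22, limma adjusted p = 1.64e-06, 23.3-fold) in nerve and 3.51 (adjusted p = 5.61e-06, 11.4-fold) in SKP-derived cells. The difference of -1.03 between the Schwann cell groups (adjusted p = 0.00638) was lost after cyclic loess (-0.87, 0.0723).

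The adaptors Grb10 and Grb14, related inhibitors of insulin and IGF receptor signalling, went in opposite directions. Grb14 read 8.03, 7.99 and 7.70 in nerve Schwann cells, 7.52, 7.24 and 6.78 in SKP-derived Schwann cells and 5.45, 5.72 and 5.85 in SKPs. It was higher than in SKPs by 2.23 in nerve (limma adjusted p = 3.53e-05) and 1.51 in SKP-derived cells (0.000378). Grb10 read 6.82, 6.68 and 7.53 in nerve Schwann cells, 6.91, 8.16 and 6.52 in SKP-derived Schwann cells and 8.52, 8.76 and 9.59 in SKPs. It fell by 1.95 in nerve (limma adjusted p = 0.0034) and by 1.76 in SKP-derived cells (0.00981). For both genes no Schwann cell array overlapped with a SKP array.

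Differences of the other receptor genes were smaller. Insrr, an orphan receptor of the insulin receptor family, was higher by 1.10 in nerve cells than in SKPs as deposited (limma adjusted p = 0.00199) and by 0.34 after cyclic loess, where it was not called (0.198). The insulin receptor gene Insr read 9.06, 9.39 and 9.07 in nerve Schwann cells, 7.80, 8.47 and 8.71 in SKP-derived Schwann cells and 8.87, 8.98 and 9.10 in SKPs. As with Igf1r, the SKP-derived arrays were the lowest. The difference from SKPs was -0.65 (limma adjusted p = 0.0411), which was lost in 8 of the 9 fits that leave out 1 array, with adjusted p up to 0.112 without SKP-derived array 1. Against nerve cells it was -0.84 (adjusted p = 0.0157) and was lost after cyclic loess (-0.57, 0.185). Irs1, a substrate of both receptors, differed from SKPs by -0.41 in nerve and -0.47 in SKP-derived cells (limma adjusted p = 0.0437 and 0.0386), calls that were lost without any 1 of several arrays, among them SKP array 1 (0.098 and 0.0913) and SKP array 2 (0.0879 and 0.0811). Shc1, an adaptor to RAS, fell by 1.38 in SKP-derived cells (limma adjusted p = 0.00582). In nerve cells it differed by -0.90 (0.0268), a call lost without any 1 of the 3 nerve arrays or without SKP array 1 or 2, with adjusted p up to 0.0739.

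Further down the pathway, 20 genes of PI3 kinase, AKT, FOXO and mTOR signalling were measured. Against SKPs, 6 were higher and 1 lower in nerve cells (5 and 5 after cyclic loess), and in SKP-derived cells 6 were higher and 5 lower (6 and 6 after cyclic loess). Phlpp1, a phosphatase of AKT, was higher by 1.16 in nerve and 1.08 in SKP-derived cells (limma adjusted p = 0.000287 and 0.000645). Rheb, the activator of mTOR complex 1, was higher by 0.97 and 0.68 (0.000332 and 0.00398), but by 0.37 in nerve cells after median centring (0.0717). Pdpk1, the kinase that activates AKT, was higher by 0.93 and 0.77 (limma adjusted p = 0.00257 and 0.0116), and by 0.33 in nerve cells after median centring (0.24). The transcription factor Foxo1 was higher by 1.08 in nerve cells (limma adjusted p = 0.00114) and 0.66 in SKP-derived cells (0.023). Both Foxo1 calls were lost after median centring (0.0972 and 0.0784), and the second without SKP-derived array 1 (0.083) or 3 (0.0685) or SKP array 1 (0.0732) or 2 (0.0681). Pik3cb, a catalytic subunit of PI3 kinase, fell by 1.46 in nerve cells (limma adjusted p = 0.0151). Rps6kb1, the S6 kinase, fell by 1.04 and the regulatory subunit Pik3r1 was higher by 0.82 in SKP-derived cells (limma adjusted p = 0.00267 and 0.0101). The mRNA binding protein Igf2bp1, the 1 of 3 in its family measured, fell by 0.59 in SKP-derived cells (0.00527). In nerve cells Igf2bp1 differed by 0.22 as deposited (limma adjusted p = 0.149) but by -0.50 after cyclic loess (0.00579), where it was called lower. Rps6kb1 in nerve cells likewise differed by -0.39 as deposited (limma adjusted p = 0.11) and by -0.66 after cyclic loess (0.00711).

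Igf2 and Igf2r belong to imprinted loci in rodents, and 22 of 27 other listed imprinted genes were measured. Against SKPs, 13 were higher and 1 lower in nerve cells, and 8 and 3 after cyclic loess, with a median difference of 0.75 beside 0.46 over all genes. Of all genes 49.7% were called higher and 14.9% lower there, or 22.4% and 25.6% after cyclic loess. In SKP-derived cells 6 were higher and 4 lower (5 and 4 after cyclic loess), with a median of 0.27 beside -0.01. The shares of all genes were 19.3% and 22.3% (18.6% and 23.9% after cyclic loess). Between the Schwann cell groups limma called 0 higher (also 0 unadjusted) and 9 lower, and after cyclic loess 0 in either direction, with 0 higher and 1 lower unadjusted. As deposited 1.33% of all genes were called higher and 42.3% lower, so 9 of 22 does not set the imprinted genes apart. The 9 as deposited included Dlk1 at -1.07, Meg3 at -1.04, Asb4 at -1.02, Peg12 at -0.71, H19 at -0.63 and Usp29 at -0.43.

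H19, the noncoding neighbour of Igf2 with 1 gene (Mir675) between them, read 6.92, 7.37 and 6.80 in nerve Schwann cells, 6.56, 6.18 and 6.46 in SKP-derived Schwann cells and 5.77, 5.68 and 5.73 in SKPs. Both Schwann cell groups lay above all SKP arrays. It was higher than in SKPs by 1.30 in nerve (limma adjusted p = 0.000232, and 0.68 after cyclic loess) and by 0.67 in SKP-derived cells (0.0124), a call lost after quantile normalisation (0.50, 0.0569). Ppp1r9a, which encodes the actin-binding neurabin, was higher by 3.38 and 2.61 (limma adjusted p = 3.38e-05 and 0.000169). Kcnq1, a potassium channel gene, was higher by 2.71 in nerve cells (limma adjusted p = 0.00293). In SKP-derived cells it differed by 1.63 (adjusted p = 0.05), a call lost after cyclic loess (0.0523) and without SKP-derived array 3 (0.94, 0.136), nerve array 2 (0.0693) or any 1 SKP array (0.0843 to 0.121). Usp29 was higher by 1.47 and 1.03 (limma adjusted p = 2.18e-05 and 0.000168), or by 0.71 and 0.93 after cyclic loess. Sgce, a sarcoglycan, was higher by 1.31 and 1.10 (9.82e-05 and 0.000354). Ndn, which encodes the growth suppressor necdin, fell by 1.17 and 1.93 (limma adjusted p = 0.00623 and 0.000703). The noncoding RNA Meg3 was higher by 1.95 in nerve cells (0.000953) and differed by 0.91 in SKP-derived cells (0.0579).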

How the data were processed

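RNA of 9 cultures, 3 per group, was measured on Affymetrix Rat Gene ST 1.0 arrays. The values analysed are the log2 levels deposited by the authors for 29214 features. Per the submitters' processing notes, Affymetrix Expression Console made them with RMA. Whether the arrays were normalised together is not given in the sources used here. Features naming 1 gene (15310) were kept, 323 with several genes and 13581 with none were left out, and the feature with the highest mean stood for a gene, which left 14506 genes. Group means were fitted over all 9 arrays with limma 3.58.1 (lmFit, eBayes) in R 4.3.3, with Benjamini-Hochberg adjustment across all genes in each of 3 comparisons. Calls needed an adjusted p under 0.05 and no minimum fold. The fit was tested on simulated data with independent noise and no shift of whole arrays. That test therefore does not cover the shift between groups described above. Every adjusted p comes from limma.

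Named genes are the 10 members, up to 4 called genes of each list and comparison with the largest difference, and Insr, Irs1, Irs2, Pappa and H19, where Irs2 has no feature naming it alone. For each member the 2 genes closest to it over the 9 arrays are also given. Members and lists were chosen with earlier results of these data known. Alternatives were other scalings (median centring, cyclic loess, quantile), a filter on low genes, other rules for features, a fit of 2 groups, trended variances, array weights, a replicate block, stricter thresholds and leaving out each array. Deviations of same-numbered arrays from their group means correlated at -0.124 to 0.289. With 3 arrays per group these values cannot decide whether the numbers pair cultures, and the main fit pairs no arrays. Detection calls were not used here, so absence is not claimed for any gene, and having 3 arrays a group limits the precision. Promoters are from RefSeq, build GRCr8. RefSeq gene order gave the neighbours.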

Additional observations from a re-analysis of the deposited data

How the results depend on the processing

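Each of the 3 comparisons was refitted under 21 alternatives. In nerve Schwann cells minus SKPs the count of 3 lower IGF axis genes held throughout, while the 2 higher genes became 0 after median centring, cyclic loess, quantile normalisation, without genes below the median level, at an adjusted p under 0.01 and with a 2-fold minimum, and lay between 0 and 2 when 1 array was left out (0 without nerve array 1). Igf2 was then -0.14, -0.14 and -0.16 and Igfbp2 -0.15, -0.31 and -0.29 under the 3 scalings in the order named. In SKP-derived minus nerve cells the 2 lower genes became 0 under the 3 scalings, 1 without low genes, at 0.01 or with 2-fold, and 4 with array weights, with 1 to 3 when 1 array was left out (1 without nerve array 1 or 3). Igfbp2 there was 0.10 after cyclic loess and 0.08 after quantile normalisation. In SKP-derived cells minus SKPs 3 to 4 genes were lower without 1 array.

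Of the pathway list, 24 genes were called in nerve cells minus SKPs, 15 without low genes, 15 at 0.01 and 12 with 2-fold (18 to 25 without 1 array). In SKP-derived cells minus SKPs 26 were called, 13 at 0.01 and 12 with 2-fold (19 to 26). Between the Schwann cell groups 14 were called, 1 after median centring, 0 after cyclic loess or quantile, 1 without low genes, 23 with array weights, 4 at 0.01 and 1 with 2-fold, and 5 to 16 without 1 array (7 without nerve array 1, 5 without 2, 7 without 3). Of the imprinted list, 14 calls in nerve cells minus SKPs became 6 without low genes (13 to 15 without 1 array). The 10 calls in SKP-derived cells minus SKPs became 5 without low genes, at 0.01 or with 2-fold (7 to 10). The 9 calls between Schwann cell groups became 0 under the 3 scalings and without low genes, 17 with array weights and 3 at 0.01 or with 2-fold (4 to 11, lowest without nerve array 2). The filter on low genes left 6 of the 10 IGF axis genes.

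With the sample number as a replicate block, the IGF axis counts stayed at 2 higher and 3 lower, 0 and 4, and 0 and 2, the pathway counts were 23, 25 and 13, and the imprinted counts 14, 10 and 10. Over all genes the block gave 7120 higher and 2174 lower against 7211 and 2158 without it in nerve cells minus SKPs. Of 18 settings of 1 array against the arrays of another group, 8 were closest to the array of the same number. Between nerve and SKP-derived Schwann cells it was 4 of 6, and in each comparison with SKPs 2 of 6.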

Other observations

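Each IGF axis gene was set beside the 2 genes whose levels over the 9 arrays, after cyclic loess, correlated most with it. The points share 3 groups, so these values describe likeness in these cultures only. Igf2r lay closest to the collagen receptor gene Ddr2 and to the semaphorin Sema5a (Pearson r = 0.995 and 0.993 over 9 arrays). Igfbp3 lay closest to Spata18 and to the fibrillin gene Fbn1, and Igfbp4 to the transcription factor Tcf4 and the glutathione peroxidase Gpx3. Igf1r lay closest to the histone demethylase Kdm5b (r = 0.981), with the arrays in the same order for both genes. Igf1 lay closest to the thrombomodulin gene Thbd (r = 0.978) and to Rgma. Igfbp6 lay closest to Fcer1g and Vnn1, and Fcer1g encodes a receptor chain of myeloid cells. Igfbp5 and Igfbp7 had Peak1 among their closest genes, and Igfbp7 also the chemokine Ccl2. Igf2 had the weakest closest gene, Paqr3 (r = 0.854), and Igfbp2 lay closest to Hspa14 and Xrcc2.

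Markers of other cell types were counted beside the IGF axis in each comparison with SKPs after cyclic loess. On that scale 22.4% of all genes were called higher and 25.6% lower in nerve cells, and 18.6% and 23.9% in SKP-derived cells. The lists are short, so their counts are not read as signs of other cell types. In nerve Schwann cells 1 of 6 smooth muscle and pericyte markers was higher and 2 lower, 2 of 4 endothelial markers were higher, 1 of 3 keratinocyte markers was higher and 1 lower, and 1 of 4 perineurial markers was higher and 1 lower. In SKP-derived Schwann cells 1 smooth muscle and pericyte marker was higher and 2 lower, 1 endothelial and 1 keratinocyte marker were higher, and 1 perineurial marker was higher and 1 lower. Of 4 melanocyte markers 2 were lower in nerve Schwann cells, and 2 were lower and 1 higher in SKP-derived Schwann cells. The higher one was Tyrp1, at 9.94, 7.29 and 6.30 as deposited against 4.44, 4.65 and 5.08 in SKPs. For the 5 adipocyte markers limma called 0 in either direction in both comparisons, with 2 lower in nerve and 1 lower in SKP-derived cells at an unadjusted p under 0.05. The perineurial and tight junction gene Cldn1 read 9.62 on array 2 of nerve and 9.96 on array 2 of SKP-derived Schwann cells, against 4.29 to 6.51 on the other Schwann cell arrays. The mean of all 4 perineurial markers, Cldn1 included, spread less. It was 8.31, 9.14 and 8.36 in nerve and 7.87, 8.41 and 7.40 in SKP-derived Schwann cells. Tyrp1 and Cldn1 were singled out after their values were seen. The part of Cldn1 in the high Igf1, Igfbp5 and Igfbp7 on array 2 of both Schwann cell groups was not tested.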
